A study of Mus musculus with 3 samples.

Results

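Complement is a system of plasma and surface proteins that tags particles for uptake and can lyse membranes, and macrophages are among its known sources outside hepatocytes. In the classical pathway C1q binds immune complexes or dying cells and its proteases cut C4 and C2, while in the alternative pathway factor B joins a fragment of C3 in a convertase that properdin stabilises. Both pathways cleave C3, whose fragments are recognised by receptors on phagocytes, and the terminal components assemble the membrane attack complex. The 9 genes described here, of 24453 gene symbols measured, were taken by name. They are C1qa, C1qb and C1qc, the chains of C1q; C4b, which encodes C4, and C3, the central component; Cfb and Cfp, which encode factor B and properdin; C6, a terminal component; and Vsig4, which encodes the complement receptor CRIg. All 9 reached RPKM 1 in some library, the filter on low values, which 11482 genes passed in all.

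RNA was sequenced from macrophages sorted from liver, heart and kidney of 8-week-old C57BL/6 mice, in the steady state, with 1 library for each tissue. The labels call the liver cells Kupffer cells, which line the sinusoids, and give neither sex nor the number of animals. The sort kept cells with CD11b and F4/80 on their surface and left out cells with Ly6G or Ly6C, markers of neutrophils and inflammatory monocytes. The series compares the transcriptomes of these tissue macrophages, so the comparisons below are liver against heart, liver against kidney and heart against kidney. Values are in RPKM, which divides reads by exon length in kilobases and scales each library to 1000000 reads counted, so levels of different genes are set side by side per length. Without replicates, nothing could be tested against the spread between animals. The exact 95% intervals given cover counting error only. Reads copied by PCR count as separate molecules in them, so they may be too narrow even for that error. A difference of at least 2 units of log2(RPKM + 1), 4-fold on this scale, is counted as higher or lower. In such bulk libraries, fewer cells of a type and less RNA per cell cannot be told apart.

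The reads counted over all transcripts were 16743403 in the liver, 14460607 in the heart and 15550820 in the kidney library. A read in several transcripts of a gene counts more than once in these totals, to which RPKM is scaled. With 1 transcript per symbol they were 10373687, 8751964 and 9485361. Each of the 7 macrophage markers (such as Adgre1, Csf1r and Lyz2) reached RPKM 1 in each library, and their summed levels were 1839.5 RPKM in the liver, 1799 in the heart and 1700.3 in the kidney. Of the 7 Kupffer cell markers, a list that holds Vsig4 itself, 7 reached RPKM of at least 1 in the liver, 3 in the heart and 2 in the kidney library. Clec4f, Cd5l and Marco of that list had 0 reads in the heart and in the kidney library. Genes used as markers of other cells were read too, and which cells these reads came from was not tested. Of the 11 hepatocyte markers found, 10 reached RPKM of at least 1 in the liver library (summed level 349.7 RPKM), 0 in the heart (1.42) and 1 in the kidney (2.43), and 8 of the 11 had 0 reads in the heart and 7 in the kidney library. The 10 tubule markers summed to 2.38 RPKM in the liver, 0.59 in the heart and 428 in the kidney, led there by Umod at 215 RPKM. The 9 genes of fibroblasts and mural cells summed to 12.3 RPKM in the liver, 159 in the heart and 0.775 in the kidney, led in the heart by Dcn at 125 RPKM. The 9 endothelial genes summed to 172, 346 and 12.9 RPKM in the liver, heart and kidney, of which Lyve1, also expressed by some resident macrophages, made 336 in the heart. The 8 genes of T, B and NK cells summed to 202, 3.08 and 0.049 RPKM. Markers of cardiomyocytes and neutrophils stayed at or below 13.2 and 6.61 RPKM in sum in every library.

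The 250 bases before the RefSeq start are shown, as a description, for 2 C1q chain genes, which were abundant in all 3 libraries, and for C6 and Vsig4, the members with the largest differences between libraries. RefSeq promoters (GRCm38.p6) were found for 6 of the 9 members: C1qb, C1qc, C3, C6, Cfp and Vsig4. The C1qb window begins at 136886201 and does not adjoin the transcript whose level is given, which ends at 136886177. Each is written 5′ to 3′ on the gene's strand, and capitals mark matches, on either strand, to the letters GAGGAA, known as a core of sites for the macrophage factor PU.1, or TGCTGA, known from partial sites for MAF factors.
C1qb, chr4:136886201-136886450, minus strand: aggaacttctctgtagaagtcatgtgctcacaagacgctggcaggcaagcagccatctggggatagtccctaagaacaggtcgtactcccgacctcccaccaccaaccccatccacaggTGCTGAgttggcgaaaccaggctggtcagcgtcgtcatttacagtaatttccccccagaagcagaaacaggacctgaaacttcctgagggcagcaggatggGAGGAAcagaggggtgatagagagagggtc
C1qc, chr4:136892915-136893164, minus strand: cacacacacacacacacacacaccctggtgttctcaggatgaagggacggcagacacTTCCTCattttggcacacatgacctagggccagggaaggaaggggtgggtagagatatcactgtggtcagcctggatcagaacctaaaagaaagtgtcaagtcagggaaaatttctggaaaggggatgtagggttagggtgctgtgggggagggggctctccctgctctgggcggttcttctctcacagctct
C6, chr15:4726960-4727209, plus strand: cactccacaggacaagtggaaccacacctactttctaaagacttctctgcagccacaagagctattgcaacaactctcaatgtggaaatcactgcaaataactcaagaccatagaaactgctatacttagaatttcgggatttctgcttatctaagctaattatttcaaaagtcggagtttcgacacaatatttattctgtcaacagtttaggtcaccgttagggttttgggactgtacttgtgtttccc
Vsig4, chrX:96293439-96293688, minus strand: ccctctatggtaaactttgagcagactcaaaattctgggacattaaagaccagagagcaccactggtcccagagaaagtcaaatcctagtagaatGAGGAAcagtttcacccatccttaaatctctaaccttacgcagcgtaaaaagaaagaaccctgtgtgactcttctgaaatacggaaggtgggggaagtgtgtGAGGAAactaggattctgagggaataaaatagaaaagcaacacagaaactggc

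GAGGAA was found in 3 of the 6 member promoters, those of C1qb, C1qc and Vsig4, with 2 matches in Vsig4. It occurs in 23.4% of the 32536 distinct RefSeq promoters of this length. TGCTGA was found in 2 of the 6, C1qb and C3, against 16.1% of all promoters. TGGGAA, known from sites of the Notch factor RBPJ (21.6% of all promoters), and TTCNNNGAA, known from sites of STAT factors (7.04%), were found in 0 of the 6. No matches overlapped each other. No relation between these letters and the levels was tested. A match is a run of letters in this window and not a measured site, and no match says only that these letters are not there.

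The C1q chain genes lie side by side on mm10 chromosome 4, within 18.7 kb from 136880145 to 136898844 on the minus strand, and were the members highest in level in the heart and the kidney library. C1qb, at 136880145 to 136886177, encodes the B chain and stood at 475 RPKM in the liver (95% interval 465 to 485, 8404 reads), 283 in the heart (275 to 292, 4331 reads) and 411 in the kidney library (401 to 421, 6758 reads). It held place 10 among the 11482 genes in the liver, 142 in the heart and 16 in the kidney library. C1qc, at 136889802 to 136892914, encodes the C chain and stood at 246 RPKM in the liver, 113 in the heart and 209 in the kidney. C1qa, at 136895916 to 136898844, encodes the A chain and stood at 195 RPKM in the liver, 67.9 in the heart and 164 in the kidney. All 3 chain genes were thus highest in the liver and lowest in the heart library, and the liver and kidney values lay close to each other. Summed over the chains, the level was 916 RPKM in the liver, 465 in the heart and 784 in the kidney library.

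**Figure D1:**
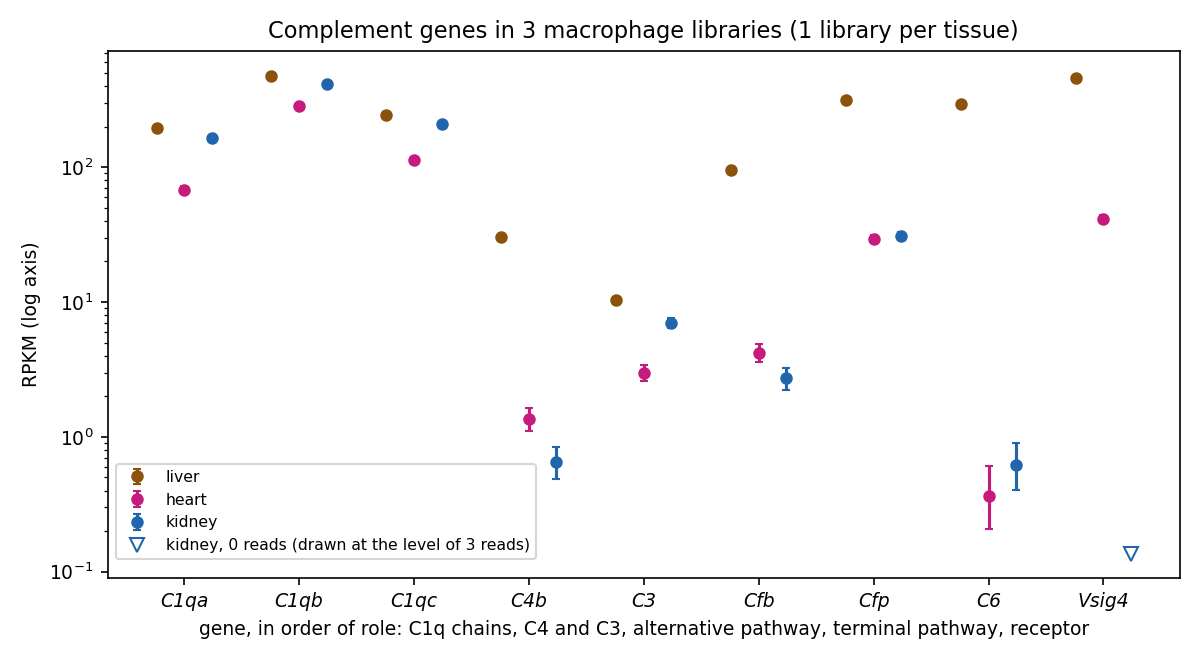
RPKM (log axis) of the 9 complement genes in the liver, heart and kidney library, with bars for exact 95% Poisson intervals of the reads, which are often smaller than the points. All 9 genes stand highest in the liver, and each C1q chain gene stands within 3-fold of itself across libraries. C4b, Cfb, Cfp, C6 and Vsig4 stand at least 2 log2 units higher in the liver than in each other library. Vsig4 had 0 reads in the kidney (open triangle, drawn at the level of 3 reads, 0.136 RPKM).

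None of the 3 chain genes differed by 2 log2 units in any pair of libraries. For liver over heart the ratio of RPKM was 2.88 for C1qa (counting interval 2.68 to 3.08), 2.17 for C1qc (2.05 to 2.29) and 1.68 for C1qb (1.61 to 1.74). For liver over kidney the ratios were 1.19, 1.18 and 1.15 in the same order, with counting intervals that together ran from 1.12 to 1.26, and with TPM scaling 1.10, 1.08 and 1.06. For heart over kidney they were 0.415, 0.543 and 0.689. The order of the chains, C1qb above C1qc above C1qa, was the same in each library, but their proportions were not. C1qb stood 2.43-fold above C1qa in the liver (2.34 to 2.53), 4.17-fold in the heart (3.9 to 4.47) and 2.51-fold in the kidney library (2.4 to 2.63). C1qc stood 1.26-fold above C1qa in the liver (1.20 to 1.32), 1.67-fold in the heart (1.55 to 1.80) and 1.28-fold in the kidney (1.21 to 1.34). C1qb over C1qc was 1.93 in the liver (1.86 to 2.01), 2.5 in the heart (2.36 to 2.64) and 1.97 in the kidney (1.89 to 2.05). In the heart library the ratios lay above those of both others beyond counting error, while the liver and kidney intervals overlapped.

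**Figure D2:**
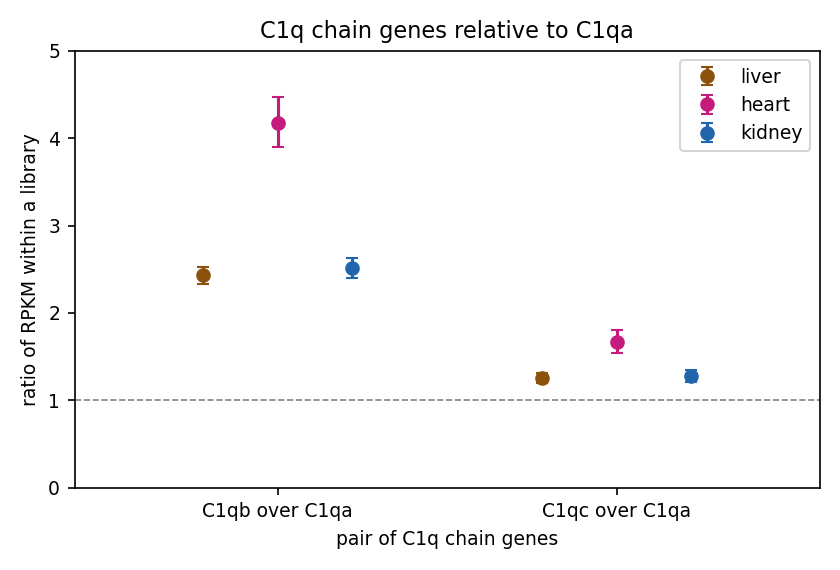
Ratio of the RPKM of C1qb and of C1qc to that of C1qa within each library, with 95% counting intervals; the dashed line marks equal levels. C1qb stood at 2.43, 4.17 and 2.51 times C1qa in the liver, heart and kidney library.

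Within a library, read density is RPKM times a constant, so it holds the same proportions by construction. The chain genes had 3.27 (C1qa), 7.95 (C1qb) and 4.11 (C1qc) reads per bp of exon in the liver, 0.982, 4.1 and 1.64 in the heart and 2.54, 6.39 and 3.25 in the kidney library. The file header holds a setting of 3 that is read here as a limit on the tags counted at a position, which over both strands would allow at most 6 reads per bp. More than 6 were recovered for 50 genes in the liver, among them C1qb and Vsig4, for 24 in the heart and for 20 in the kidney library, among them C1qb. How that setting acted on these values is thus not known, and its part in the ratios of densely read genes was not tested. Of the 9 members, C1qa, C1qb, C1qc, C6, Cfp and Vsig4 had over 2 reads per bp in at least 1 library, as did 942 genes in all.

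C3 and C4b, whose products are related proteins that the classical pathway cleaves in turn, differed from each other in pattern. C3, the central component, lies on chromosome 17 at 57203967 to 57228136 and was the lowest member in the liver library. It stood at 10.3 RPKM in the liver (9.6 to 11.0, 876 reads), 2.97 in the heart (2.59 to 3.39, 219 reads) and 7.02 in the kidney (6.44 to 7.62, 556 reads). The order liver, kidney, heart was that of the C1q chains, and no difference reached 2 log2 units. The ratios were 3.45 for liver over heart (2.98 to 4.02), 1.46 for liver over kidney (1.31 to 1.63) and 0.424 for heart over kidney (0.361 to 0.496).

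C4b, which encodes complement C4, lies on chromosome 17 at 34728381 to 34743897. It stood at 30.4 RPKM in the liver (29.3 to 31.6, 2726 reads), 1.36 in the heart (1.11 to 1.64, 105 reads) and 0.649 in the kidney library (0.488 to 0.847, 54 reads). C4b was 22.4-fold higher in the liver than in the heart (18.4 to 27.5) and 46.9-fold higher than in the kidney (35.8 to 62.6). The heart and kidney values were both low, with a ratio of 2.09 (1.49 to 2.96). The near-identical gene C4a stood at 10.7, 0.624 and 0.145 RPKM in the liver, heart and kidney, and reads may be shared between C4b and C4a.

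The alternative pathway genes Cfb and Cfp were both higher in the liver than in either other library. Cfb, which encodes the protease factor B, lies on chromosome 17 at 34856374 to 34862514, 112 kb from C4b. It stood at 95.9 RPKM in the liver (93.1 to 98.8, 4380 reads), 4.18 in the heart (3.57 to 4.87, 165 reads) and 2.71 in the kidney (2.24 to 3.25, 115 reads). The ratios were 22.9 for liver over heart (19.6 to 26.9) and 35.4 for liver over kidney (29.4 to 42.9). In GENCODE M21, 79.5% of the exon bases of Cfb are shared with Gm20547, a gene annotated across Cfb and C2, so reads of these genes cannot be separated; the other 8 members share none with another gene. The second Cfb transcript in the table stood at 95.4, 4.14 and 2.69 RPKM.

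Cfp, which encodes properdin, the stabiliser of the alternative convertase, lies on chromosome X at 20925454 to 20931555. It stood at 314.6 RPKM in the liver (308 to 321, 8559 reads), 29.4 in the heart (27.2 to 31.6, 690 reads) and 30.9 in the kidney library (28.8 to 33.2, 782 reads). The heart and kidney values differed by less than counting error, with a ratio of 0.949 (0.855 to 1.05), and their order changed with median ratio scaling, to 0.20 log2 units for heart minus kidney. Against these the liver stood 10.7-fold (9.91 to 11.6) and 10.2-fold (9.45 to 11.0) higher.

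C6 and Vsig4 had the largest differences of the members. C6, whose product joins C5b at the first step of assembly of the attack complex, lies on chromosome 15 at 4727210 to 4804045. It had 13973 reads in the liver, 15 in the heart and 27 in the kidney library, for 296, 0.367 and 0.615 RPKM. The liver was 805-fold higher than the heart (488 to 1438) and 481-fold higher than the kidney (330.2 to 730). Among all genes compared its difference held place 4 from the top for liver minus heart and place 9 for liver minus kidney. The heart and kidney values could not be told apart at this depth, with a ratio of 0.597 (0.295 to 1.16).

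Vsig4, which encodes CRIg, a receptor for C3 fragments on macrophages, lies on chromosome X at 96247203 to 96293438 and was the member whose level differed most between heart and kidney. It stood at 455 RPKM in the liver (447 to 464, 10846 reads) and 41.5 in the heart (38.7 to 44.3, 853 reads), and had 0 reads in the kidney library, where 3 reads would make 0.136 RPKM. The liver was 11.0-fold higher than the heart (10.2 to 11.8). Against the kidney the liver was at least 3358-fold and the heart at least 306-fold higher, as bounds against 3 reads in the kidney library.

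**Figure D3:**
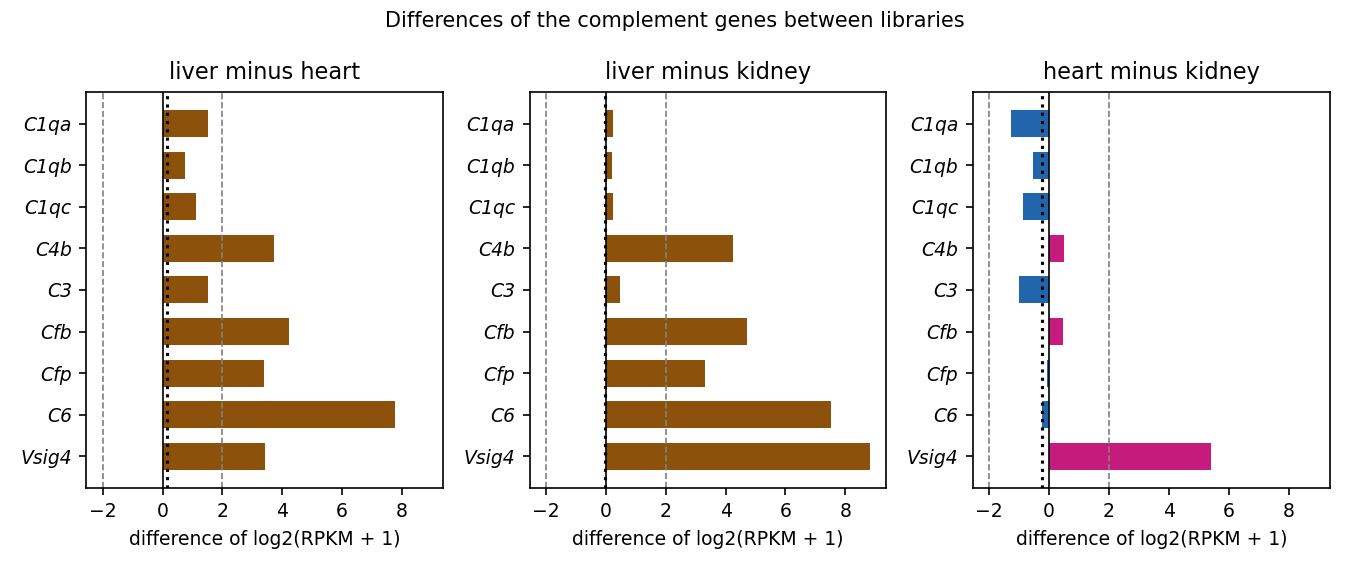
Difference of log2(RPKM + 1) of the 9 genes for liver minus heart, liver minus kidney and heart minus kidney; dashed lines mark 2 log2 units, the dotted line the median of all genes compared (0.16, -0.04 and -0.23), and bars take the colour of the higher library. C4b, Cfb, Cfp, C6 and Vsig4 pass 2 units in both liver comparisons, and Vsig4 alone does so for heart minus kidney.

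Counted over the members, 5 of 9 were higher in the liver than in the heart, where 7.13% of all genes compared were, and 0 were lower, where 5.33% were. The same 5 genes, C4b, Cfb, Cfp, C6 and Vsig4, exceeded the kidney by that much in the liver (5.10% of all genes), and 0 were lower (7.57%). These comparisons share the liver library. Among all genes, 819 were higher and 612 lower in the liver than in the heart, and 670 and 772 with median ratio scaling. With scaling to TPM they were 1262 and 1458. TPM values were 3.21, 3.64 and 3.49 times the RPKM in the liver, heart and kidney, while the pseudocount stayed at 1. It thus weighed less, and the TPM counts hold both changes together. For heart minus kidney 275 higher and 586 lower became 342 and 415 with median ratio scaling. The members' counts were the same under both scalings. Higher in the liver than in both others were 3.24% of all genes. For heart minus kidney 1 member, Vsig4, was higher (2.40% of all genes) and 0 were lower (5.10%). The median difference of the members was 3.38 log2 units for liver minus heart, 3.30 for liver minus kidney and -0.24 for heart minus kidney, beside 0.16, -0.04 and -0.23 for all genes. Among the 942 densely read genes the shares higher in the liver were 7.54% against the heart and 7.11% against the kidney. Since the members were chosen with earlier results of these data known, these counts describe them and support nothing further.

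Hepatocyte genes stood in the liver library beside these members, at uneven levels. They ran from Fga at 0.071 RPKM (4 reads), Apoa1 at 1.885, Hpx at 2.81 and Ttr at 3.49 to Serpina1e at 103 RPKM. Alb stood at 64.3 RPKM in the liver, 0 in the heart and 0.22 in the kidney. The part of hepatocytes in the liver values of C3, C4b, Cfb and C6, which they are also known to make, was not tested. Nor was that of the endothelial and lymphocyte genes of the liver library. Other complement genes known from hepatocytes are given here by their reads in the liver library. Mbl1, Mbl2, C4bp, Cfi, Hc, C8b, Cpn1, Cpn2 and C1s1 had 0 reads. Serping1, C8g, Vtn, Masp1, C9, Masp2 and C8a had 138, 124, 66, 63, 20, 18 and 1 reads. Among the further complement genes read there, C2 stood at 87.8 RPKM, C4a at 10.7 and C1ra at 8.39. This choice of genes was made after their values were seen, so how many were read depends on it. The source of the reads was not tested.

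The rest of the pathway was followed through 44 other complement genes, of which 25 passed the filter. Of these, 10 were higher and 0 lower in the liver than in the heart, where 7.13% of all genes compared were higher and 5.33% lower. For liver against kidney 7 were higher and 2 lower, beside 5.10% and 7.57% of all genes. For heart against kidney 2 were higher and 3 lower, beside 2.40% and 5.10% of all genes. Their median differences were 1.58, 1.25 and 0.00 log2 units. Genes that passed the filter through 1 library alone, such as Colec10 and Colec11, could only be higher there, so these counts are a description.

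**Figure D4:**
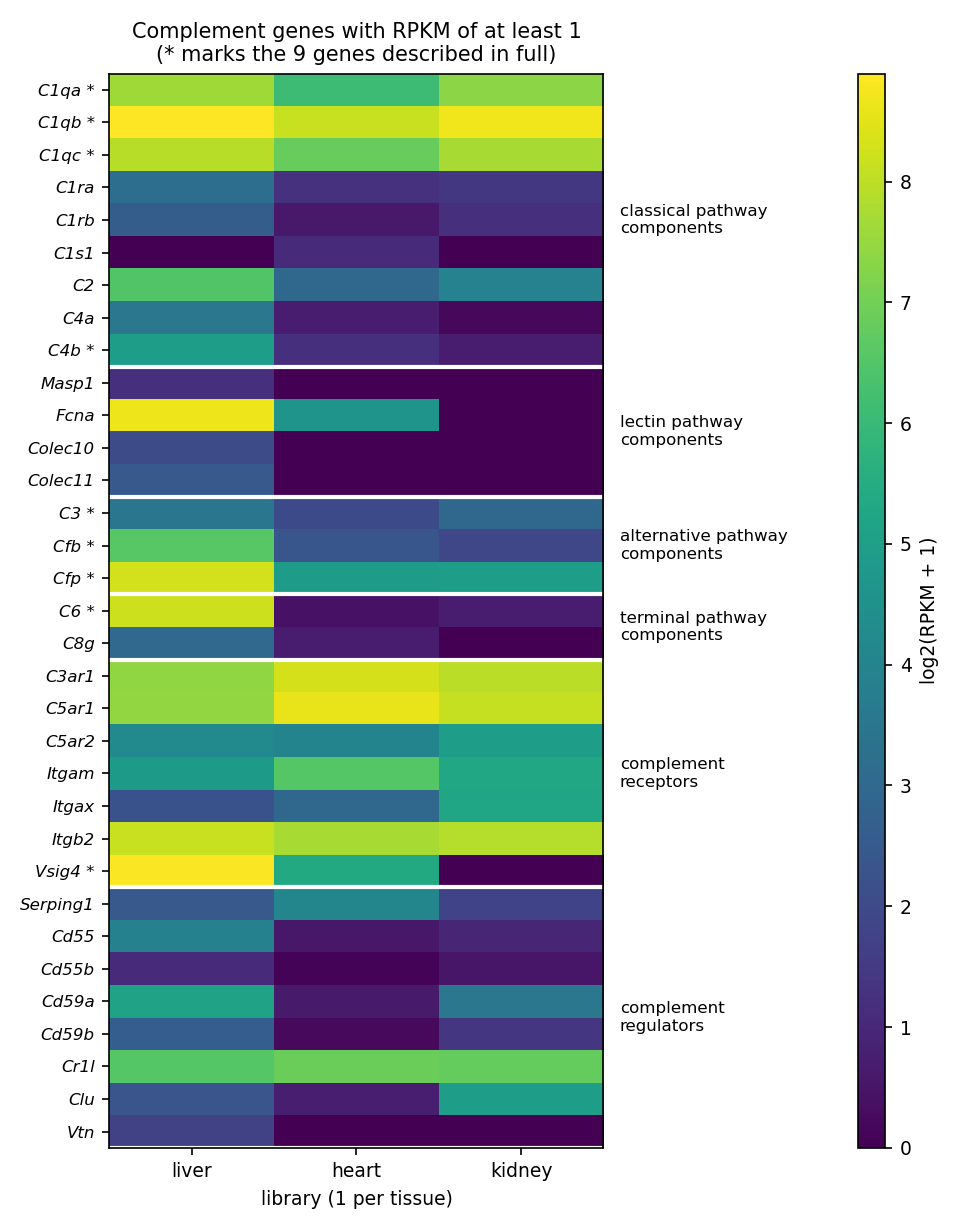
log2(RPKM + 1) of complement genes past the filter on low values, grouped by role, in the liver, heart and kidney library; asterisks mark the 9 members. Components are mostly brightest in the liver column, while the receptors C3ar1 and C5ar1 are brightest in the heart column.

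Among the other classical pathway genes, C2, whose product is cut by the C1 proteases, stood at 87.8 RPKM in the liver, 6.8 in the heart and 14.5 in the kidney, with 46.9% of its exon sequence annotated to other genes too. It was 12.9-fold higher in the liver than in the heart (11.4 to 14.7) and 6.07-fold higher than in the kidney (5.57 to 6.63). The near-identical C1ra and C1rb, which encode the protease C1r, stood at 8.39 and 5.16 RPKM in the liver, 1.41 and 0.514 in the heart and 1.73 and 1.31 in the kidney. C1s1, which encodes the partner protease C1s, had 0 reads in the liver, 47 in the heart and 0 in the kidney library, beside the fibroblast genes of the heart library, whose part was not tested. C1ra, the most abundant of these C1 protease genes, thus stood at 8.39 RPKM in the liver library, where the C1q chain gene lowest in level stood at 195 RPKM.

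In the lectin pathway, Fcna, which encodes ficolin A, had a pattern like that of Vsig4. It stood at 406 RPKM in the liver (8882 reads) and 23.2 in the heart (437 reads), with 0 reads in the kidney library. Fcna was 17.6-fold higher in the liver than in the heart (15.9 to 19.4), and against the kidney the bounds were at least 2749.8-fold for the liver and at least 157-fold for the heart. The collectin genes Colec11 and Colec10 stood at 4.58 and 3.06 RPKM in the liver with 0 reads in both others, as did the lectin pathway protease gene Masp1 at 1.38 RPKM. The 0 reads of Fcnb, Mbl1 and Mbl2 held for all 3 libraries.

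Of the remaining alternative and terminal genes, Cfd, which encodes factor D, had 0 reads in every library. C8g, which encodes the C8 gamma chain, stood at 7.16 RPKM in the liver (124 reads), 0.601 in the heart (9 reads) and 0 in the kidney. C6 and C8g were the terminal genes past the filter, and the other 5 (Hc, C7, C8a, C8b and C9) had at most 20 reads in any library.

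The receptors other than Vsig4 were not higher in the liver by 2 log2 units in either comparison. C5ar1, the receptor for the anaphylatoxin C5a, stood at 173 RPKM in the liver, 385 in the heart and 278 in the kidney library, and was 0.45-fold in the liver relative to the heart (0.438 to 0.463). C3ar1, the receptor for C3a, named here after its values were seen, stood at 172, 322 and 249 RPKM in the liver, heart and kidney. C5ar2, another C5a receptor, stood at 18.1, 15.3 and 30.9 RPKM. Itgam, which encodes the sort marker CD11b, a chain of complement receptor CR3, stood at 27.9, 93.7 and 38.0 RPKM. Of its exon sequence, 68.7% is annotated to another gene too. Itgax, a chain of receptor CR4, was highest in the kidney, at 3.71 RPKM in the liver, 6.93 in the heart and 36.2 in the kidney. It differed by -2.98 log2 units for liver minus kidney and by -2.23 for heart minus kidney.

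Regulators that shield host cells, most of them named here for large differences, differed in several directions. Cr1l, named after its values were seen, stood at 92.2 RPKM in the liver, 119 in the heart and 109 in the kidney. It differed by less than 2 log2 units in each pair. Cd59a, an inhibitor of the membrane attack complex, stood at 34.3 RPKM in the liver, 0.558 in the heart (15 reads) and 10.5 in the kidney library. The related gene Cd59b stood at 5.29, 0.175 (2 reads) and 1.63. Cd55, which speeds the decay of convertases, stood at 14.0 RPKM in the liver, 0.495 in the heart (18 reads) and 0.946 in the kidney. It was 28.4-fold higher in the liver than in the heart (17.8 to 48.2). Serping1, the inhibitor of the C1 proteases, was highest in the heart, at 4.55 RPKM in the liver, 15.7 in the heart and 2.49 in the kidney, with a ratio of 6.33 for heart over kidney (4.9 to 8.28). Clu, which encodes clusterin, was highest in the kidney, at 4.06 RPKM in the liver, 0.693 in the heart and 30.5 in the kidney. The fibroblast genes of the heart library stood beside Serping1 and the tubule genes of the kidney library beside Clu, and their part was not tested.

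Genes nearest to each member were found by the Euclidean distance of log2(RPKM + 1) over the 3 libraries, as a description of level and pattern together. Nearest to C1qb were Laptm5, Cd68 and Tyrobp, genes of the lysosome and of signalling in myeloid cells, at distances of 0.32, 0.33 and 0.47 log2 units. Nearest to C6 were the Kupffer cell genes Fabp7, Cd5l and Clec4f, at 0.88, 1.07 and 1.26. Vsig4 lay nearest to Fcna at 0.83, then to Timd4, a receptor for phosphatidylserine, at 1.86 and Cd300e at 2.19. For the other members the nearest genes were Rnasek, Klra2 and Ndufa7 (C1qa), Glmp, Psme1 and Cap1 (C1qc), Ammecr1l, Armt1 and Mettl4 (C3), Cyp4b1, Plpp3 and Adcy4 (C4b), Pygl, Actn1 and Cd209g (Cfb) and Dhrs1, Gstp1 and Gstp2 (Cfp). These lay at 0.12 to 0.95 log2 units.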

How the data were processed

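RNA of sorted macrophages from mouse liver, heart and kidney was amplified with a low-input kit and made into Illumina libraries, per the labels' protocols. CASAVA, STAR and the build mm10 are named in the submitters' processing notes, without versions. The authors deposited RPKM for 34711 RefSeq transcripts, made with the HOMER program analyzeRepeats.pl from exon reads of either strand, scaled to 1000000 per library, per the file headers. The header also holds the option -pc with the value 3, read here as a limit on tags per position, which the recovered reads per bp of some genes exceed. RPKM times exon length summed to 1000000 in each library. No value column was left unmapped.

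The longest coding transcript was kept for each of 24453 symbols, or the longest noncoding one, with a choice to make for 5612. Reads were recovered from the steps of RPKM times length: all 12084 liver, 15239 heart and 14167 kidney values from 1 to 500 reads were whole to within 0.1. Intervals of RPKM are exact 95% Poisson intervals, and those of ratios come from exact 95% Clopper-Pearson intervals of the share of reads. The pseudocount was 1 and the filter a highest RPKM of 1 or more; ratios carry no pseudocount, and with 0 reads are bounds against 3 reads in that library. The recovery and the differences were tested on simulated data (Python 3.11.15, numpy 2.4.6, scipy 1.17.1). With 1 library per tissue no p-value was computed.

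The members, 6 complement lists of 53 genes, 9 lists of cell type markers (78 symbols, 1 not found) and the alternatives were chosen with earlier results of these data known, and the motifs after the promoters were seen. Named beyond the members are, per complement list, the 4 other genes past the filter with the largest difference, any further gene past 2 log2 units, the leading markers, and the 3 genes nearest to each member. Other genes, such as C1s1, C3ar1, Alb, Vtn and those below the filter, were named after their values were seen. Of the complement lists, 1 gene is counted but not reported here. Exon overlap is from GENCODE M21. Alternatives were pseudocounts of 0.1 and 5, scaling to TPM or by median ratios, another choice of transcript, no filter, and leaving out genes of over 2 reads per bp.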

Additional observations from a re-analysis of the deposited data

How the results depend on the processing

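The members' counts, 5 higher in the liver than in the heart and than in the kidney and 1 higher in the heart than in the kidney, were the same with pseudocounts of 0.1 and 5, both scalings and the other choice of transcript. Of 27 differences of single members, 1 changed sign under these settings, Cfp for heart minus kidney with median ratio scaling (0.20 log2 units), and none passed or left the limit of 2 log2 units. Counts of all genes moved with the pseudocount, given as higher and lower in pairs. With a pseudocount of 0.1 they were 1686 and 1582 for liver minus heart, 1155 and 2023 for liver minus kidney and 751 and 1599 for heart minus kidney. With a pseudocount of 5 they were 271 and 194, 188 and 203, and 108 and 105 in the same order. With TPM scaling, in which the pseudocount of 1 also weighs less, they were 1262 and 1458, 926 and 1908, and 640 and 1247. Of the 53 complement genes, with a pseudocount of 5, 8 were higher in the liver than in the heart (15 before), 7 higher and 1 lower in the liver than in the kidney (12 and 2 before) and 1 lower in the heart than in the kidney (3 before). With a pseudocount of 0.1, 5 were higher in the heart than in the kidney (3 before), and 1 was lower in the liver than in the heart (0 before), as with TPM. Without genes of over 2 reads per bp 1 was higher in the heart than in the kidney, since Vsig4 and Fcna were left out. For heart minus kidney, 3 higher and 3 lower became 3 and 2 with median ratio scaling. TPM scaling moved the median of all genes to 0.02 log2 units for liver minus heart and -0.15 for liver minus kidney, and median ratio scaling moved it to 0.00 for liver minus heart and -0.01 for heart minus kidney. The cause of the other changes was not tested. No paired analysis was possible because there is 1 library per tissue. Depth limits C6 in the heart and kidney library, at 15 and 27 reads.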

Other observations

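Genes with names linked to the globular C1q domain or to C1q binding were taken by the start of their symbols, after the data were seen. These made up 22 symbols, and whether each product holds the domain was not checked. Few were read. C1qbp, which encodes a binding protein for the globular heads of C1q found mainly in mitochondria, stood at 14.7 RPKM in the liver, 9.02 in the heart and 5.72 in the kidney library. C1qtnf1, a secreted protein with a C1q domain, stood at 2.18 RPKM in the liver, 12.8 in the heart and 1.82 in the kidney, a difference of -2.12 log2 units for liver minus heart and 2.29 for heart minus kidney. Emilin2, an extracellular matrix glycoprotein, stood at 8.38, 4.49 and 0.907 RPKM in the liver, heart and kidney, a difference of 2.30 log2 units for liver minus kidney. C1ql3 had 0 reads in the liver, 0 in the heart and 44 in the kidney library.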
